A study of Mus musculus with 4 samples.

Results

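The 10 elastic fibre genes Eln, Fbn1, Fbln1, Fbln5, Lox, Loxl1, Loxl2, Mfap4, Mfap5 and Emilin1 were followed through the fibroblast, mural and endothelial cells of hypoxic mouse lungs. The genes were chosen by name, and each of the 10 symbols was found as 1 row among the 31253 genes of the count tables. The lungs came from WT mice and from Vegfr2Y949F mice, all on the C57BL/6J background, 6 to 8 weeks old and kept in hypoxia for 6 weeks. The mutation named in the genotype swaps a tyrosine of VEGFR2, the receptor through which VEGF-A acts on endothelial cells, for phenylalanine, and its carriers are called mutant below. Each genotype had 2 droplet libraries of single cells, labelled as set A and set B, and each library pooled lung cells of 2 mice, so that 8 mice were studied. No normoxic lungs were analysed here, and the labels give neither the meaning of the set letter nor the sex of the mice.

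Elastic fibres give the lung its recoil and let arteries stretch. Elastin (Eln) is deposited on a scaffold of microfibrils made of fibrillin (Fbn1) and microfibril-associated proteins (Mfap4, Mfap5), fibulins (Fbln1, Fbln5) and emilins (Emilin1) link the core to the scaffold and to cells, and lysyl oxidases (Lox, Loxl1, Loxl2) cross-link the fibre or the surrounding collagen. Hypoxic lungs are studied as a model of pulmonary hypertension, in which the walls of small arteries thicken and matrix is laid down around them.

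The 4 libraries held 83606389 to 96521589 unique molecular identifiers (UMIs, each standing for 1 captured RNA molecule), and 41456 cells were kept, with a median of 4315 to 5556 UMIs per cell. Pairs of libraries shared 0.236 to 0.430% of barcodes of the smaller one, and in alveolar fibroblasts the chi-square of any pair was 6.07 to 20.3 times its degrees of freedom, so no pair was treated as repeats of 1 library. Cells were clustered without the 10 genes, and clusters were named from markers into 25 types, with 6381 cells left in unnamed clusters. Of these, 4177 lay in a cluster whose candidate names were both endothelial, general capillary and arterial, and they are not among the endothelial cells below unless said. In each library the defining markers were found where the names used below place them, for instance Pi16 in 77.8 to 82.6% of adventitial fibroblasts against 3.60% of other cells, Npnt in 95.1 to 97.4% of alveolar fibroblasts (12.7%), Aspn in 73.9 to 93.8% of myofibroblasts (4.37%), Myh11 in 90.7 to 95.5% of smooth muscle cells (3.18%), Notch3 in 96.5 to 97.2% of pericytes (2.61%) and Gja5 in 45.0 to 51.6% of arterial endothelial cells (4.72%). The fibroblast types held 770 adventitial fibroblasts, 4402 alveolar fibroblasts and 250 myofibroblasts. The mural types held 240 smooth muscle cells and 765 pericytes. The endothelial types held 13539 general capillary cells, 3618 aerocytes (the gas-exchange capillary cells), 1404 venous and 443 arterial cells, with 319 lymphatic cells kept apart. Levels are CPM, the UMIs summed per library and type and scaled to a common total, given as mean ± SD of 4 libraries unless a library is named. They are compared between cell types for 1 gene and not between genes. Lymphocytes (1840 cells), which are not known to make elastic fibres, are given beside them as a comparison. They are no common level of free RNA, since 5 endothelial markers summed to 1839 and 434 CPM in lymphocytes of WT A and WT B and to 2063 and 599.5 CPM in those of mutant A and mutant B, against 157 to 347 CPM in fibroblasts.

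Elastin RNA was read in fibroblasts, smooth muscle cells and every endothelial type, and in pericytes only near the level of lymphocytes. Eln (ENSMUSG00000029675, mm10 chr5:134702593-134747323, minus strand), the fibre's core protein, stood at 995, 873, 955 and 794 CPM in adventitial fibroblasts of WT A, WT B, mutant A and mutant B. In the same order it stood at 1044, 711, 780.2 and 585 CPM in alveolar fibroblasts, the cells between the alveoli. Smooth muscle cells had 568, 658, 847 and 698 CPM. Ranked by mean, adventitial fibroblasts (904 ± 89.3), alveolar fibroblasts (780.0 ± 194), smooth muscle cells (692 ± 116), myofibroblasts (428 ± 167), arterial endothelial cells (412 ± 159), venous cells (195 ± 44.0), lymphatic cells (123 ± 45.4) and general capillary cells (82.3 ± 19.5) each overlapped the next in their range over libraries. Aerocytes (45.5 ± 10.5) lay below general capillary cells without overlap. Pericytes, at 14.9 ± 8.03 CPM, were near the 13.1 ± 7.67 CPM of lymphocytes. In 9 of the 10 fibroblast, mural and endothelial types the B library had less Eln than the A library in both genotypes, and in smooth muscle cells it did so in mutants only.

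Among the mural types Eln was high in smooth muscle cells and low in pericytes. The smooth muscle markers do not tell vascular from airway muscle. Differences between types were tested with edgeR's quasi-likelihood test on library sums with the library as a term, and a call is an adjusted p (Benjamini-Hochberg over all genes tested) under 0.05. The types were clustered from other genes of the same cells, so these p-values cover the spread between libraries and not the choice of clusters. Eln was 5.67 higher in smooth muscle cells than in pericytes on the log2 scale (SE 0.18, edgeR adjusted p = 2.58e-27). It was 2.33 higher in arterial than in general capillary cells (SE 0.10, edgeR adjusted p = 1.03e-18) and 1.03 higher in arterial than in venous cells (SE 0.11, edgeR adjusted p = 9.44e-08). Adventitial exceeded alveolar fibroblasts by only 0.32 (SE 0.07, edgeR adjusted p = 0.0022). With each cell thinned to 1000 UMIs, Eln was expected in 40.9% of adventitial fibroblasts, 39.0% of smooth muscle cells, 34.7% of alveolar fibroblasts and 25.7% of arterial cells, against 0.814% of lymphocytes. Without thinning, 80.0% of adventitial fibroblasts and 4.50% of lymphocytes had an Eln UMI.

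**Figure D1:**
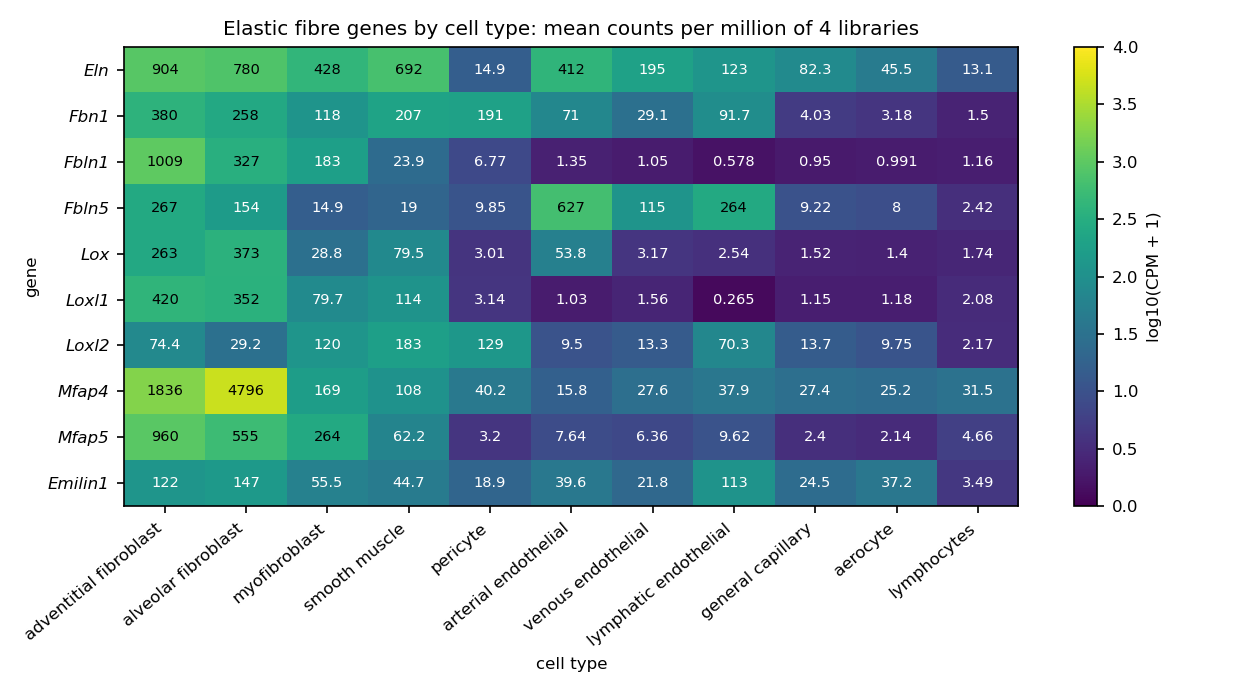
Mean level of each gene (rows) in each cell type (columns) over 4 libraries, as log10(CPM + 1) in colour. Lighter colours stand for higher levels. Fbln1, Loxl1, Mfap4 and Mfap5 are lightest in the adventitial and alveolar fibroblast columns. Fbln5 is lightest in the arterial column, and Loxl2 in the smooth muscle and pericyte columns.

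Fibrillin-1 was read at a similar order of size in fibroblasts and in both mural types. Fbn1 (ENSMUSG00000027204, chr2:125300594-125507993, minus strand), which builds the microfibril on which elastin is laid, stood at 380, 375, 404 and 362 CPM in adventitial fibroblasts and at 266, 250, 281 and 236 CPM in alveolar fibroblasts of WT A, WT B, mutant A and mutant B. Pericytes, which had almost no Eln, held 181, 172, 228 and 185 CPM of Fbn1. Smooth muscle cells had 252, 173, 195 and 206 CPM. The smooth muscle and pericyte ranges overlapped, and the difference of 0.27 (SE 0.13, edgeR adjusted p = 0.0982) was not called, though it was called without mutant A (0.39, edgeR adjusted p = 0.0415). Among endothelial cells Fbn1 marked the larger vessels, with 71.0 ± 11.9 CPM in arterial, 29.1 ± 5.76 in venous and 4.03 ± 0.638 in general capillary cells. These 3 ranges did not overlap, and arterial cells exceeded general capillary cells by 4.16 (SE 0.17, edgeR adjusted p = 1.32e-19) and venous cells by 1.26 (SE 0.13, edgeR adjusted p = 8.07e-08). Lymphatic cells had 91.7 ± 26.0 CPM, which overlapped the arterial range.

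The microfibril-associated genes were fibroblast genes, and they divided the fibroblast types in opposite directions. Mfap4 (ENSMUSG00000042436, chr11:61485431-61488900, plus strand) encodes a protein that binds tropoelastin and fibrillin, and stood at 6244, 4887, 3617 and 4437 CPM in alveolar fibroblasts. Adventitial fibroblasts had 2170, 2033, 1544 and 1596 CPM in the same order, below each alveolar value. The adventitial level was lower by 1.30 on the log2 scale (log2 fold change -1.30, SE 0.06, edgeR adjusted p = 4.85e-11). Mfap5 (ENSMUSG00000030116, chr6:122505845-122529290, plus strand), a microfibril glycoprotein, went the other way. It stood at 943, 1039, 792 and 1064 CPM in adventitial and at 587, 610, 430 and 593 CPM in alveolar fibroblasts, a difference of 0.87 (SE 0.06, edgeR adjusted p = 5.84e-09). Mfap4 was far lower in myofibroblasts, at 169 ± 63.9 CPM, and Mfap5 was lower there by a smaller step, at 264 ± 107 CPM. In smooth muscle cells both were far lower, at 108 ± 59.7 CPM for Mfap4 and 62.2 ± 19.8 CPM for Mfap5. Mfap4 read 15.8 to 37.9 CPM as a mean in the endothelial types and 31.5 ± 6.70 CPM in lymphocytes, so the endothelial levels lay around that of lymphocytes.

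**Figure D2:**
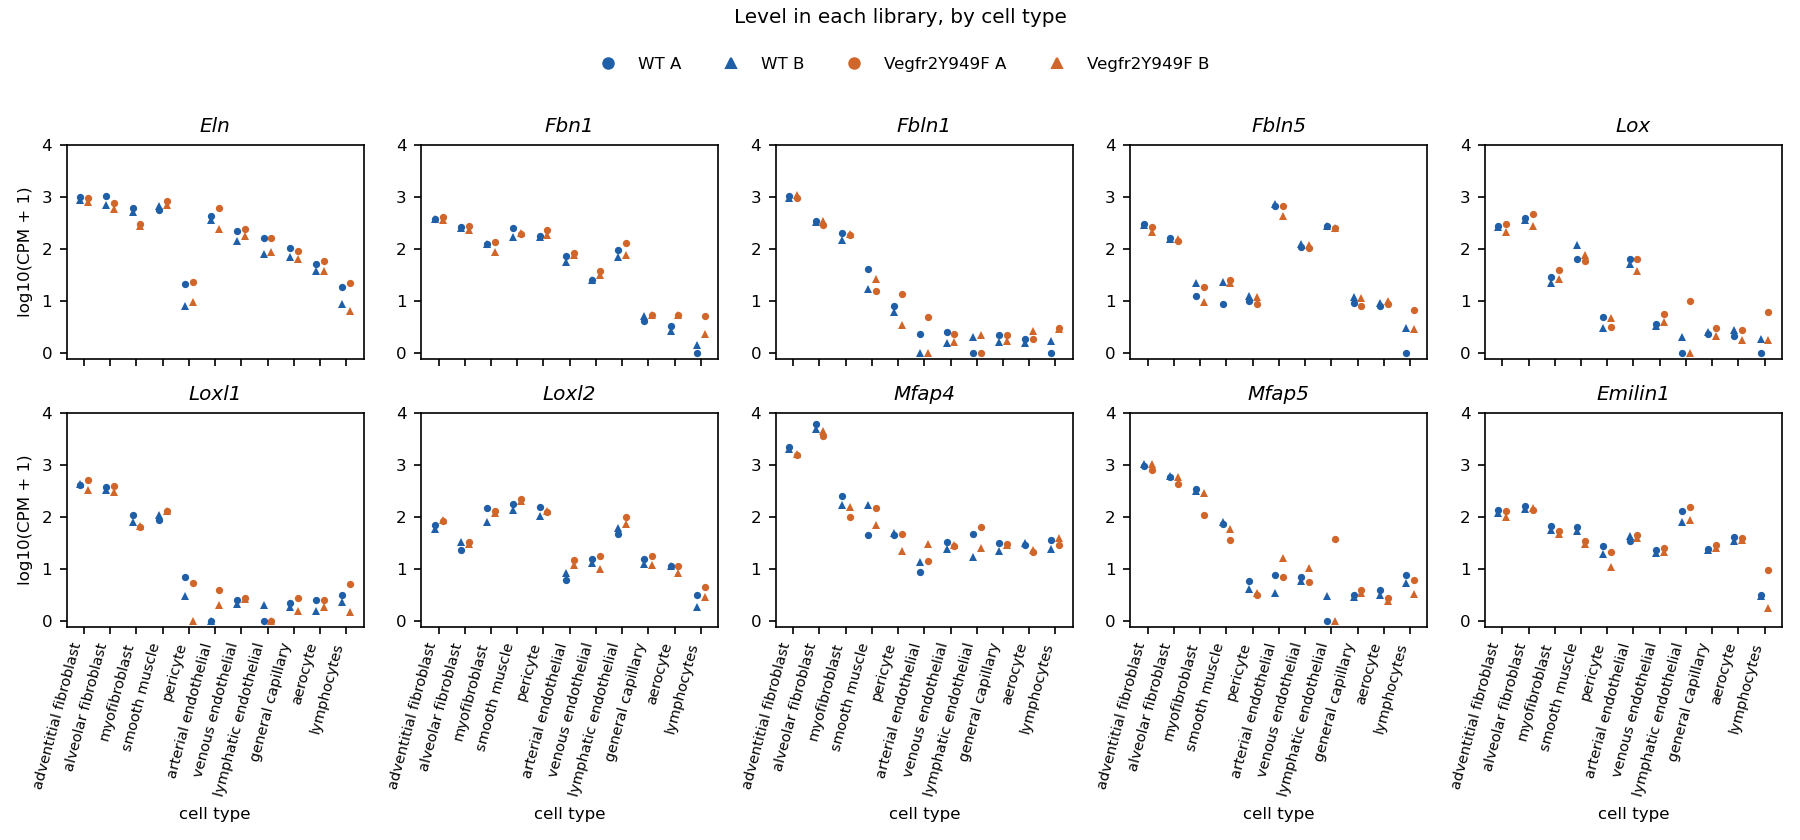
Level of each gene in each library (log10(CPM + 1), vertical axis) by cell type (horizontal axis), with 1 panel per gene, colour for genotype and marker shape for set. Points of the 4 libraries lie close together where a gene is high and spread out where it is low. Mfap4 in alveolar fibroblasts ran from 3617 to 6244 CPM.

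The fibulins Fbln1 and Fbln5 shared the fibroblasts but had their highest levels in different cells. Fbln1 (ENSMUSG00000006369, chr15:85205949-85286535, plus strand), a matrix protein found in elastic fibres and basement membranes, was a fibroblast gene. It stood at 1038, 944, 960 and 1095 CPM in adventitial fibroblasts of WT A, WT B, mutant A and mutant B. Alveolar fibroblasts had 327 ± 25.02 CPM, myofibroblasts 183 ± 23.1, smooth muscle cells 23.9 ± 11.6 and pericytes 6.77 CPM, and none of these ranges overlapped the next. The adventitial excess over alveolar fibroblasts was 1.70 (SE 0.06, edgeR adjusted p = 4.11e-12). Endothelial types had mean levels of 0.578 to 1.35 CPM, around the 1.16 CPM of lymphocytes. Fbln5 (ENSMUSG00000021186, chr12:101746565-101819055, minus strand), which tethers elastin to microfibrils and integrins, was read in arterial, epithelial, fibroblast and lymphatic cells. Arterial endothelial cells held 674, 736, 673 and 425 CPM, and adventitial fibroblasts 303, 286, 266 and 214 CPM, below every arterial value. Alveolar type 1 cells, an epithelial type outside these lineages, had 501 ± 83.3 CPM, a range that overlapped the arterial one. Lymphatic cells stood at 264 ± 15.6, alveolar fibroblasts at 154 ± 9.09 and venous cells at 115 ± 8.69 CPM. General capillary cells had 9.22 ± 1.90 CPM, and the arterial excess over them was 6.11 (SE 0.13, edgeR adjusted p = 6.5e-27). The excess over venous cells was 2.41 (SE 0.11, edgeR adjusted p = 8.26e-14). With clusters cut more finely, so that the arterial cluster took in more cells, the arterial level was 332 CPM, below the alveolar type 1 level given above.

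Because these 2 fibulins had their highest levels in different cells, the bases before their starts are shown side by side. They are the 250 bases before the gene's start in RefSeq (GRCm38.p6, the mm10 build), for the first of 2 starts listed for each gene, written 5′ to 3′ on the gene's strand. They cover chr15:85205699-85205948, plus strand, for Fbln1 and chr12:101819120-101819369, minus strand, for Fbln5, and capitals mark the motif matches.
Fbln1: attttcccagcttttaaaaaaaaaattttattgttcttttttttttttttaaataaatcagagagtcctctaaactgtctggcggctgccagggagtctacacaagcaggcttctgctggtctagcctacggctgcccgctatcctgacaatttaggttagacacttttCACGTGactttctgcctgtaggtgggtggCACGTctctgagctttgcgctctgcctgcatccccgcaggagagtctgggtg
Fbln5: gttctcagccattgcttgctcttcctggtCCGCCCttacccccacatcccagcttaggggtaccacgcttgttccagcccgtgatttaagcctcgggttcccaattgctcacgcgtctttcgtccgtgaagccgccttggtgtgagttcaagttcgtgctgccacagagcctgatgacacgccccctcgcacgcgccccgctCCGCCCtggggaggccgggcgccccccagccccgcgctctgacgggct
The motifs searched were 5 on both strands, with overlapping matches counted: the hypoxia-inducible factor core ACGTG, the AP-1 site TGANTCA, the TEAD site CATTCC, the GC box GGGCGG and the TATA box TATAAA. The Fbln1 stretch, with 46.4% G and C, held 3 matches to the hypoxia-inducible factor core, of which 2 overlap on opposite strands in CACGTG, and none to the other motifs. The Fbln5 stretch, with 65.2% G and C, held 2 GC boxes and none of the others. Among 32851 promoters of the same length, 16.6% held ACGTG, 32.7% GGGCGG, 6.75% TGANTCA, 12.6% CATTCC and 12.4% TATAAA. Of the 10 genes, 4 were in the table of promoters.

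Among the cross-linking enzymes, Lox and Loxl1 were highest in alveolar and adventitial fibroblasts and Loxl2 in the mural types. Lox (ENSMUSG00000024529), the lysyl oxidase that cross-links elastin and collagen, stood at 393, 364, 462 and 271 CPM in alveolar fibroblasts and at 275, 264, 299 and 215 CPM in adventitial fibroblasts. Within each library the alveolar value was the higher, and the adventitial level was lower by 0.41 (log2 fold change -0.41, SE 0.06, edgeR adjusted p = 7.77e-05). In smooth muscle cells it was 79.5 ± 28.4 CPM, which was 4.82 above pericytes (SE 0.33, edgeR adjusted p = 7.47e-16). Myofibroblasts had less Lox than smooth muscle cells, at 28.8 ± 7.61 CPM. In arterial endothelial cells Lox stood at 53.8 ± 12.7 CPM, against 3.17 CPM in venous and 1.52 CPM in general capillary cells. The last was around the 1.74 CPM of lymphocytes, a mean raised by mutant A (5.23 CPM, with 0 to 0.917 CPM in the other libraries). The arterial excess was 4.06 over venous cells (SE 0.22, edgeR adjusted p = 2.41e-12) and 5.17 over general capillary cells (SE 0.21, edgeR adjusted p = 2.21e-19). Loxl1 (ENSMUSG00000032334, chr9:58287738-58313186, minus strand), a lysyl oxidase tied to elastic fibre upkeep, was at 420.3 ± 73.2 CPM in adventitial and 352 ± 43.3 CPM in alveolar fibroblasts. It fell to 114 ± 19.7 CPM in smooth muscle cells and 79.7 ± 20.01 CPM in myofibroblasts, and was 3.14 CPM in pericytes and 1.19 CPM in all endothelial cells, around the 2.08 CPM of lymphocytes.

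Loxl2 (ENSMUSG00000034205, chr14:69609068-69695834, plus strand), which cross-links collagen IV of basement membranes, had its highest means in smooth muscle cells and pericytes. Smooth muscle cells held 180, 137, 217 and 199 CPM of Loxl2 in WT A, WT B, mutant A and mutant B. Pericytes held 153, 105, 124 and 133 CPM, myofibroblasts 119.6 ± 29.5, adventitial fibroblasts 74.4 ± 12.8 and alveolar fibroblasts 29.2 ± 5.05 CPM. Lymphatic endothelial cells had 70.3 ± 22.4 CPM, a range that overlapped the adventitial one. Myofibroblasts exceeded alveolar fibroblasts by 1.99 (SE 0.20, edgeR adjusted p = 1.1e-08), the one member of the family that was higher there. Smooth muscle cells exceeded pericytes by 0.67 (SE 0.14, edgeR adjusted p = 0.0001). General capillary cells had 13.7 ± 2.87 CPM, above the 2.17 CPM of lymphocytes in all 4 libraries, and arterial cells did not differ from them beyond the libraries' spread (-0.45, edgeR adjusted p = 0.213). The smooth muscle level depended on splitting that cluster once more to part it from its neighbour, and was 81.7 CPM without the split, an alternative added after the data were seen. That is below each pericyte value above, so the order of the mural types rests on the split. The difference from pericytes was not tested without it.

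Emilin1 was read in all 3 lineages. Emilin1 (ENSMUSG00000029163, chr5:30913402-30921277, plus strand), an elastin-microfibril interface protein that also binds integrins, stood at 159, 144, 136 and 151 CPM in alveolar fibroblasts. Adventitial fibroblasts (122 ± 15.9 CPM) and lymphatic endothelial cells (113 ± 36.5 CPM) overlapped them. Adventitial and alveolar fibroblasts were not told apart (-0.20, SE 0.08, edgeR adjusted p = 0.055), though the difference was called without mutant A (-0.28, edgeR adjusted p = 0.018) and with no filter on low counts (-0.26, edgeR adjusted p = 0.00374). Arterial cells (39.6 ± 4.04 CPM) and aerocytes (37.2 ± 3.13) lay above general capillary (24.5 ± 2.78) and venous cells (21.8 ± 2.20), all over the 3.49 CPM of lymphocytes. The arterial excess was 0.74 over general capillary cells (SE 0.14, edgeR adjusted p = 0.000112) and 0.87 over venous cells (SE 0.16, edgeR adjusted p = 0.000259).

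Seen as a family, 8 of the 10 genes had their highest mean in a fibroblast type, the exceptions being Fbln5 and Loxl2. Of the 10, 7 were called higher and 2 lower in adventitial than in alveolar fibroblasts, where 45.9% of all genes tested were called. Their median difference was 0.48, against -0.01 over all genes. In myofibroblasts against alveolar fibroblasts all 10 were called, 9 of them lower and Loxl2 higher, with 31.3% of all genes called. The lower members there ran from -0.83 for Fbln1 to -4.84 for Mfap4, and the median was -1.26 against -0.09 over all genes. In smooth muscle cells against pericytes 8 members passed the filter on low counts, and 7 of them were called higher where 35.3% of all genes were called. Fbln1 and Fbln5 did not pass that filter. In arterial against general capillary cells 6 were called higher and 1 lower, with 22.8% of all genes called, and in arterial against venous cells 5 were called higher and 1 lower of 8 tested, with 23.1% called.

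Some calls at low levels in arterial cells rested on single libraries. Mfap4 was the lower member in both arterial comparisons (-0.73 and -0.79, edgeR adjusted p = 0.01 and 0.0173). That call was lost against general capillary cells without WT A (-0.51, edgeR adjusted p = 0.111) or mutant A (-0.61, edgeR adjusted p = 0.0709), and against venous cells without WT A (-0.56, edgeR adjusted p = 0.137) or WT B (-0.74, edgeR adjusted p = 0.0708). Mfap5 in arterial against general capillary cells (1.63, edgeR adjusted p = 0.00231) was lost without mutant B (1.07, edgeR adjusted p = 0.159). Against all fibroblasts, all mural cells had 10 of 10 members called, with Loxl2 higher by 1.61 (SE 0.10) and the other 9 lower by 0.77 (Fbn1) to 6.32 (Mfap4) on the log2 scale, where 57.8% of all genes were called. All endothelial cells had 10 of 10 called lower than fibroblasts, from -1.81 for Loxl2 to -8.96 for Fbln1, where 78.6% of all genes were called.

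Counting where each gene's UMIs lay gives another view, since a rare type with a high level can hold less of a gene than a common type with a low one. Fibroblasts were 13.2% of the kept cells and held 96.1 ± 2.02% of the UMIs of Fbln1, 94.5 ± 2.97% of Mfap5, 91.3 ± 5.47% of Loxl1, 86.0 ± 6.38% of Lox and 85.7 ± 9.17% of Mfap4. They held 77.6 ± 6.38% of Fbn1 and 64.3 ± 7.72% of Eln. Emilin1 was divided, with 50.2 ± 9.63% in fibroblasts and 31.5 ± 3.91% in endothelial cells. Endothelial cells of the 4 named types, 45.8% of the kept cells, held 22.8 ± 2.96% of Eln, and general capillary cells alone 12.3% of it. The unnamed endothelial cluster held a further 4.45 ± 2.43% of Eln, at 82.4 ± 14.1 CPM. For Loxl2, endothelial cells held 31.0 ± 3.76%, fibroblasts 32.7 ± 8.17%, the unnamed endothelial cluster 8.03% and mural cells 13.9%, although mural cells were 2.41% of the cells. Arterial cells were 1.08% of the cells and held 12.2% of Fbln5. These shares describe the dissociated suspension, in which cell types need not be freed in equal measure.

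**Figure D3:**
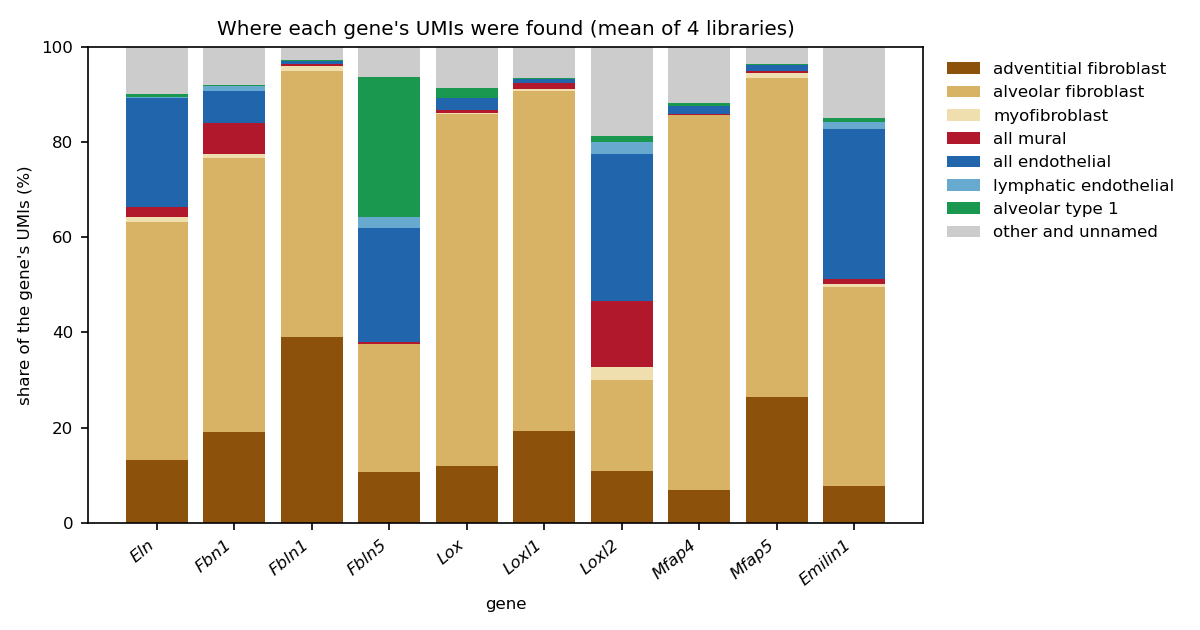
Share of each gene's UMIs (vertical axis, percent, mean of 4 libraries) found in fibroblast, mural, endothelial and other cells, stacked to 100 for each gene (horizontal axis). Fibroblasts hold most UMIs of Fbln1, Mfap5 and Loxl1, and less than the rest of the cells together for Fbln5 (37.7%) and Loxl2 (32.7%).

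Single fibroblasts carried several members at once. With each cell thinned to 1000 UMIs, the expected number of the 10 genes seen was 3.04 to 3.66 per adventitial fibroblast, by library, and 2.62 to 3.10 per alveolar fibroblast. Smooth muscle cells had 1.04 to 1.20, myofibroblasts 0.989 to 1.20, arterial cells 0.647 to 0.882, pericytes 0.345 to 0.425 and general capillary cells 0.143 to 0.199, against 0.0441 to 0.0836 in lymphocytes. The ranges of smooth muscle cells and myofibroblasts overlapped. Unthinned, the numbers were 7.33 to 7.90 for adventitial fibroblasts, 6.02 to 6.70 for alveolar fibroblasts and 0.173 to 0.353 for lymphocytes. At least 3 members were expected in 62.4 to 76.8% of thinned adventitial fibroblasts and in 0.0708 to 0.463% of thinned pericytes.

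Within alveolar fibroblasts the members differed between sub-clusters. At a finer resolution these cells split into clusters numbered 6 (1813 cells), 14 (1286 cells) and 15 (1283 cells). Cluster 15 had median UMI counts of 1489 to 1724 per cell by library, against 7584 to 11549 in cluster 6 and 9960.5 to 12455 in cluster 14, so the last 2 are compared. The members were not used in the clustering, and the values are a description without a test. Cluster 14, led by C4b, Mmp3, Mgp and C3, had more Eln than cluster 6 in all 4 libraries: 1532, 954, 1158 and 845 CPM against 704, 508, 567 and 388 CPM in WT A, WT B, mutant A and mutant B. Fbln1 (495 ± 33.0 against 197 ± 16.7 CPM) and Mfap5 (847 ± 119 against 314 ± 26.6 CPM) were also higher there in 4 of 4 libraries. Fbn1, Loxl1, Loxl2 and Emilin1 were higher in 4 of 4 libraries by smaller steps, such as 319 against 218 CPM for Fbn1. Mfap4 went the other way, with 3514, 3146, 2329 and 2772 CPM in cluster 14 and 8284, 6609, 4423 and 5781 CPM in cluster 6. Lox was also lower in cluster 14 in 4 of 4 libraries (333 against 423 CPM), and Fbln5 was higher in 3 of 4 (159 against 149 CPM).

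**Figure D4:**
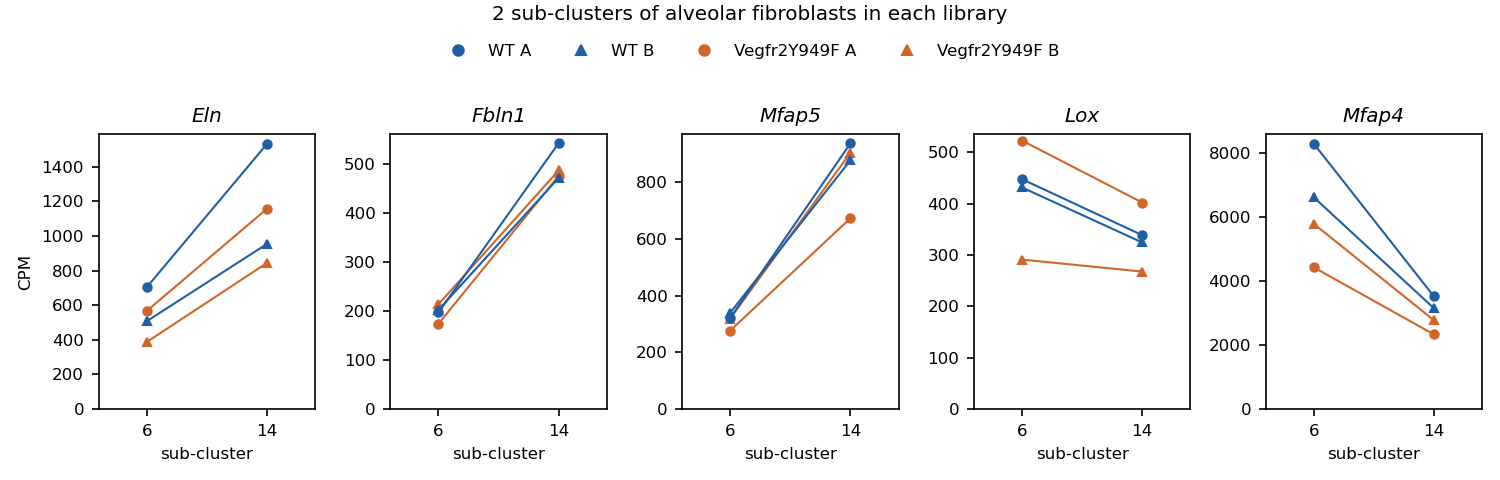
Level (CPM, vertical axis) of members in alveolar fibroblast sub-clusters 6 and 14 (horizontal axis), with 1 line per library, colour for genotype and marker shape for set. Eln rises from sub-cluster 6 to 14 in all 4 libraries, and Mfap4 falls in all 4.

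Likeness of pattern was measured as Pearson's r of mean log2(CPM + 1) over 18 cell types, among 11706 genes that reached 10 CPM in a type. The types share libraries and depth, so r is a description only. Fbln1, Mfap5, Loxl1 and Mfap4 were most alike among the members, with r of 0.901 to 0.974 for each pair. Fbn1 was most like Loxl2 (0.913), and Eln like Emilin1 (0.843). Fbln5 was least like the others, with 0.343 to Fbln1 and 0.328 to Loxl1. Among all genes, the one most like Eln was Ltbp1 (0.945), a latent TGF-beta binding protein, and Ltbp4 (0.962), another of that family, stood with Kirrel (0.962) nearest to Fbn1. The nearest to Fbln1 was Lrrc17 (0.978), to Fbln5 Ablim3 (0.859), to Lox Mgp (0.918), to Loxl1 Epha3 (0.991), to Loxl2 Jam3 (0.980), to Mfap4 Inmt (0.973), to Mfap5 Fbln1 (0.974) and to Emilin1 Pros1 (0.947).

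Other genes of the pathway, in lists beside the 10, included several that were higher in mural cells than in fibroblasts. Of other microfibril and scaffold genes, 12 were tested in mural cells against fibroblasts, of which 6 were called higher and 5 lower (median 0.05), where the 10 members had a median of -3.76. Ltbp2, a microfibril-bound relative of the latent TGF-beta binding proteins, was among the higher with 1075 CPM in pericytes and 588 CPM in smooth muscle cells against 97.4 CPM in all fibroblasts (log2 fold change 2.99, edgeR adjusted p = 2.84e-18). Of other cross-linking genes 4 of 6 were called higher and 1 lower in mural cells, among them Loxl3, a lysyl oxidase, with 75.03 CPM in pericytes. Of other fibulins and emilins, 0 of 7 were higher and 5 lower. In arterial against general capillary cells the scaffold list had 4 of 11 higher and 3 lower, and the fibulin and emilin list 2 of 5 higher and 1 lower. Ltbp4, which guides elastin deposition, stood at 895 CPM in arterial and 44.4 CPM in general capillary cells (4.39, edgeR adjusted p = 9.74e-26), and Fbln2 at 329 and 45.9 CPM (2.88, edgeR adjusted p = 3.45e-22). Ltbp2, Ltbp4, Fbln2 and Loxl3 are named here after their values were seen.

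The genotypes were compared on library sums, 2 WT against 2 mutant, in 13 types or groups of types. None of the 112 tests of a member was called by edgeR, where 8 had an unadjusted p under 0.05, and DESeq2 also called 0. The p-values measure the spread between 2 pools of mice per genotype. In all fibroblasts 0.0155% of genes tested were called, and in alveolar fibroblasts 0.0244%. The genes called were Gm8797 and Kcnk1, higher in mutants in both, and Msln, a mesothelial marker, lower in mutant alveolar fibroblasts, all named after their values were seen. In each of the other 11 comparisons it was 0%.

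In all fibroblasts 9 of 10 members had a lower mean in mutants, with a median difference of -0.14 against -0.008 over all genes, and none passed the test. Mfap4, the member with the largest difference there, stood at 5297 and 4172 CPM in WT A and WT B and at 3123 and 3916 CPM in mutant A and mutant B. Both mutant values lay below both WT values. The log2 fold change was -0.47 (SE 0.22, 95% interval -0.95 to 0.01, edgeR adjusted p = 1). Eln stood at 1027 and 732 CPM in WT A and WT B and at 797 and 607 CPM in mutant A and mutant B. The groups overlapped, though the mutant value was the lower within each set letter, which the labels do not explain. The log2 fold change of Eln was -0.37 (95% interval -0.84 to 0.09, edgeR adjusted p = 1). It was -0.12 without WT A, -0.23 without mutant B and -0.59 without WT B. Members with both mutant libraries below both WT libraries were Fbln5, Mfap4 and Mfap5, 3 of 10 where 9.32% of all genes had that order. For Mfap5 the margin was small, 657.5 CPM in WT A against 653.3 CPM in mutant B. Loxl2 was the 1 of 10 with both mutant values above, an order that 15.6% of genes had. Its margin was small too, 39.3 CPM in WT B against 40.1 CPM in mutant B. Summed over 5 endothelial markers (Egfl7, Tie1, Cldn5, Cdh5 and Pecam1), these fibroblasts had 230 to 347 CPM in WT and 157 to 290.0 CPM in mutants, lower for 5 of 5 markers with none at 0, and their part in the result was not tested.

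By fibroblast type, the member with the largest difference was Mfap4 in alveolar and adventitial fibroblasts and Eln in myofibroblasts, and no test compared the types with each other. In alveolar fibroblasts Mfap4, with the library values given above, had a log2 fold change of -0.51 (SE 0.22, unadjusted p = 0.0396, edgeR adjusted p = 1). In adventitial fibroblasts it had -0.44 (SE 0.19, unadjusted p = 0.0427, edgeR adjusted p = 0.999). Fbln5 and Mfap4, 2 of 10 members, had both mutant values below both WT values in each of these types. That order was held by 9.22% of genes in alveolar and 13.7% in adventitial fibroblasts. For Fbln5 in alveolar fibroblasts the margin was small, 156 CPM in WT B against 153 CPM in mutant B. In adventitial fibroblasts Loxl2 lay above in both mutants (16.4% of genes). In myofibroblasts, the contractile fibroblasts of the alveolar duct, Eln stood at 623 and 511 CPM in WT A and WT B and at 298 and 279 CPM in mutant A and mutant B. The groups did not overlap, and the difference of -0.95 (SE 0.29, 95% interval -1.58 to -0.32, unadjusted p = 0.00634) did not pass the adjusted test (edgeR adjusted p = 0.999). Eln, Loxl1, Mfap4, Mfap5 and Emilin1 were lower in both mutants there, 5 of 8 members tested where 15.2% of genes had that order. For Emilin1 the nearest values were 54.6 CPM in WT B and 53.9 CPM in mutant A. In WT B and mutant B, the nearest libraries for the next genes, Mfap5 stood at 310 and 288 CPM, Mfap4 at 168 and 154 and Loxl1 at 80.8 and 65.6. Each library held at least 40 myofibroblasts. Mfap5 was called only when mutant B was left out (-1.64, edgeR adjusted p = 0.0141), leaving 1 mutant library whose spread is assumed to be like the WT one. The 5 endothelial markers summed to 119 (Tie1 at 0) and 557 CPM in WT and 988 and 536 CPM in mutant myofibroblasts, and their part in the result was not tested.

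In mural cells the members were divided evenly, 5 higher and 5 lower in mutants. Mfap5 stood at 23.9 and 29.4 CPM in WT A and WT B and at 13.1 and 16.6 CPM in mutant A and mutant B, a log2 fold change of -0.89 (95% interval -1.65 to -0.13, unadjusted p = 0.0246, edgeR adjusted p = 1). Emilin1 stood at 36.9 and 30.04 CPM in WT and 24.7 and 14.8 CPM in mutants (-0.78, 95% interval -1.49 to -0.08, unadjusted p = 0.032, edgeR adjusted p = 1). With doublets kept the difference of Mfap5 was -0.50, and with the smooth muscle cluster left unsplit that of Emilin1 was -0.26. These were the 2 of 10 with both mutant values below both WT values, where 11.1% of genes had that order. In smooth muscle cells Eln lay above both WT values in both mutants (568 and 658 against 847 and 698 CPM, 0.31, 95% interval -0.29 to 0.91, edgeR adjusted p = 0.999). Loxl1 and Loxl2 also did, which makes 3 of 9 members where 14.6% of genes had that order. Emilin1 in smooth muscle cells had 63.7 and 52.3 CPM in WT against 33.8 and 28.9 CPM in mutants (-0.88, unadjusted p = 0.0408, edgeR adjusted p = 0.999), and the difference was -0.079 with that cluster left unsplit. The 5 endothelial markers summed to 276 to 350 CPM in WT and to 74.8 to 481 CPM in mutant mural cells, none of them at 0, and their part in the result was not tested. In endothelial cells themselves Emilin1 was read at 28.5 CPM and Mfap5 at 2.78 CPM. Mfap5 in lymphocytes stood at 6.63, 4.36, 5.23 and 2.41 CPM in WT A, WT B, mutant A and mutant B. The endothelial Mfap5 level was thus no higher than around that of lymphocytes.

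In endothelial cells 5 members were higher and 5 lower in mutants. Fbn1 was read at 5.92 and 7.31 CPM in WT and at 8.70 and 8.56 CPM in mutants, which did not overlap (0.32, 95% interval -0.16 to 0.80, edgeR adjusted p = 1). It was the 1 of 10 with both mutant values above, where 14.8% of genes had that order, and 0 of 10 had both below (7.25% of genes). By type, Fbn1 was above in both mutants in arterial (15.9% of genes), venous (15.2%) and general capillary cells (15.5%). It was also above in aerocytes (16.3%) and in pericytes (15.7%). Loxl2 and Mfap4 were above too in arterial cells, 3 of 7 members tested, and Mfap5 and Emilin1 in general capillary cells, 3 of 10. The margin of Fbn1 was small in general capillary cells (4.15 CPM in WT B, 4.37 in mutant B) and in arterial cells (71.7 in WT A, 74.5 in mutant B). No member of the 7 tested in venous cells lay below in both mutants (9.31% of genes), and in aerocytes Mfap4 and Mfap5 did, 2 of 9 where 8.33% of genes had that order. The difference of Fbn1 in aerocytes was 1.06 (SE 0.33, 95% interval 0.32 to 1.81, unadjusted p = 0.0108, edgeR adjusted p = 1), at 2.29 and 1.70 CPM in WT and 4.34 and 4.38 CPM in mutants. Fbn1 in lymphocytes stood at 0 and 0.458 CPM in WT A and WT B and at 4.19 and 1.34 CPM in mutant A and mutant B (0, 2, 8 and 5 UMIs), so both mutants were above both WT libraries there too, and their part in the aerocyte result was not tested. Mfap4 in aerocytes, at a level around that of lymphocytes, had -0.50 (unadjusted p = 0.0159, edgeR adjusted p = 1). The 6 mesenchymal markers Col1a1, Col1a2, Col3a1, Pdgfra, Dcn and Lum summed to 12.97 to 18.8 CPM in WT and to 17.0 to 21.7 CPM in mutant endothelial cells, and their part in the Fbn1 result was not tested. Fbln5 in arterial cells stood at 674 and 736 CPM in WT and at 673 and 425 CPM in mutants (-0.40, SE 0.26, edgeR adjusted p = 1), so that mutant A was next to WT and mutant B was lowest. It was the 1 of 7 members tested there with both mutant values below, where 11.0% of genes had that order. Eln in arterial cells ranged from 237 in mutant B to 616 CPM in mutant A, with WT between them (0.06, 95% interval -0.68 to 0.81).

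**Figure D5:**
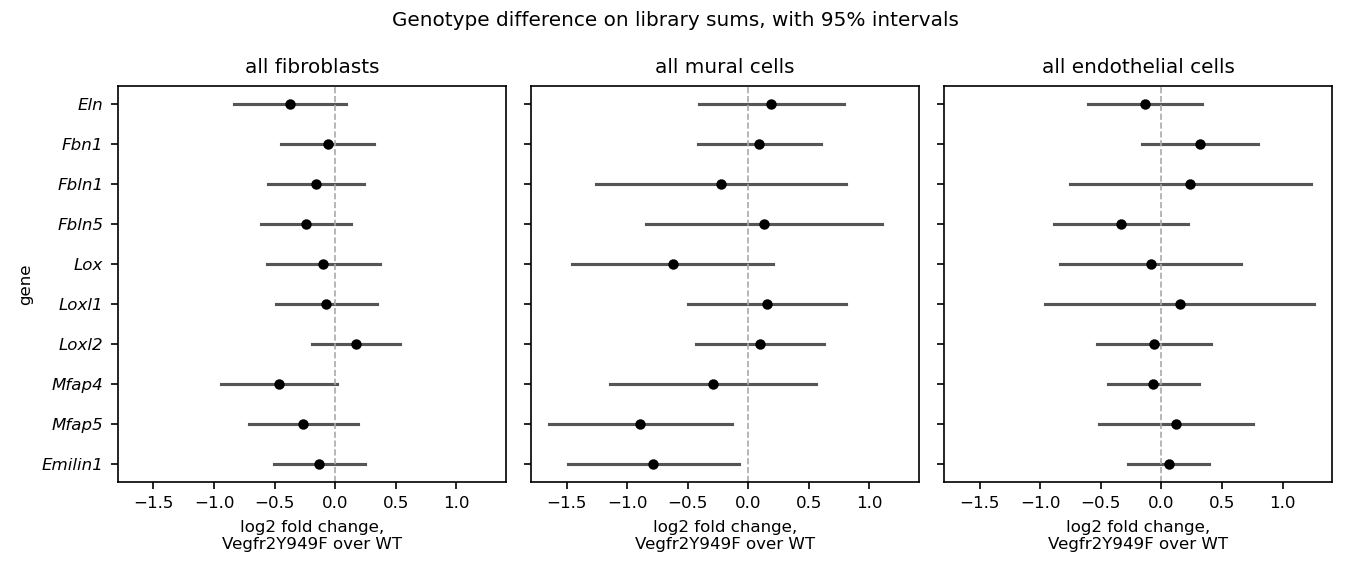
Log2 fold change of mutant over WT (horizontal axis) for each gene (vertical axis) on library sums of all fibroblasts, all mural cells and all endothelial cells, with bars for the 95% interval from edgeR. In fibroblasts all points but Loxl2 lie left of 0, and in mural cells the bars of Mfap5 and Emilin1 do not reach 0 before adjustment for the number of genes tested.

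Whether the genotype difference differed between lineages was tested directly, with an interaction term on the same sums. None of the 30 tests of a member in 3 lineage pairs was called, where 0% of all genes were called, and 7 had an unadjusted p under 0.05. Mfap4 differed between endothelial cells and fibroblasts by 0.43 (SE 0.12, unadjusted p = 0.00602) and Mfap5 by 0.41 (SE 0.17, unadjusted p = 0.0349), both at an edgeR adjusted p of 1. In endothelial cells both genes stood around their levels in lymphocytes. These values thus set a fibroblast difference against a level not told apart from that of lymphocytes. Whether endothelial cells themselves respond in these genes was not tested by them. Emilin1 differed between mural and endothelial cells by -0.90 (SE 0.29, unadjusted p = 0.00544) and Eln between mural cells and fibroblasts by 0.52 (SE 0.24, unadjusted p = 0.0417), also at an edgeR adjusted p of 1. The Eln difference was 0.043 without WT A and 1.04 without WT B. Mural Eln also depends on the mix of smooth muscle cells (692 CPM) and pericytes (14.9 CPM) in each sum. Smooth muscle cells numbered 68, 63, 66 and 43 in WT A, WT B, mutant A and mutant B, and pericytes 231, 172, 211 and 151. The part of that mix in the Eln difference was not tested.

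The other lists of the pathway were called in 0 genes between the genotypes. In fibroblasts 7 of 12 other scaffold genes had a higher and 5 a lower mean in mutants, and of the other fibulins and emilins 2 of 7 were higher. Elastin-binding proteins and receptors had 2 of 9 higher and elastases and their inhibitors 4 of 11. Mfap2, a microfibril glycoprotein related to Mfap5, stood at 70.3 and 67.6 CPM in WT and at 45.5 and 62.8 CPM in mutant fibroblasts (-0.38, SE 0.19, edgeR adjusted p = 1). In mural cells 5 of 6 other cross-linking genes had a higher mean in mutants. Atp7a, the copper transporter that supplies lysyl oxidases, stood at 121 and 69.6 CPM in WT and 170.4 and 119 CPM in mutant mural cells, groups that overlapped (0.57, SE 0.29, edgeR adjusted p = 1). Other genes on the rule's list were Adamts10 (0.22), Emilin2 (0.54), Mmrn2 (-0.32), Dcn (-0.27), Bgn (-0.19), Ctsk (-0.33) and Slpi (-0.73) in fibroblasts and Bmp1 (0.24) in mural cells, given as log2 fold changes that did not pass the edgeR test.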

How the data were processed

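Single-cell RNA was captured in droplets from lungs of 2 WT and 2 Vegfr2Y949F pools of 2 mice each. The deposited matrices hold whole-number UMI counts per gene and barcode, not normalized, written by Cell Ranger 6.1.1 per the file headers. The submitters' processing notes name the mm10 build and the tools Seurat 4.1.0, UMI-tools and fastp. How strand was set and which annotation was counted is not given in the sources used here. Coordinates come from GENCODE M21, in which 31107 of the 31253 identifiers were found. In that annotation Eln, Fbn1, Lox, Loxl2 and Mfap4 overlap a gene on the other strand (Gm30003, Gm9913, AC161119.1, Gm27177 with Gm37513, and Mapk7), whose reads cannot be told apart without strand.

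Cells were kept with at least 500 genes, at least 1000 UMIs and under 15% mitochondrial UMIs. The highest 8% of Scrublet scores per library were removed as doublets. Clusters came from 2000 variable genes, 40 principal components, 15 neighbours and the Leiden algorithm (scanpy 1.11.5, leidenalg 0.10.2, resolution 1, seed 0), without integration and without the members, the other pathway genes, Kdr and sex-linked, mitochondrial, haemoglobin and ribosomal genes. A cluster was named where at least 3 markers of a type were seen in 20% of its cells. The smooth muscle cluster was split once more at resolution 0.1. The authors' cell annotation was not used, so names can differ from the study's. All endothelial cells means general capillary, aerocyte, arterial and venous cells. The unnamed cluster with 2 endothelial candidate names was added to them only as an alternative chosen after the data were seen.

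Counts were summed per library and type and tested with edgeR 4.0.16 (R 4.3.3; TMM, filterByExpr, quasi-likelihood, Benjamini-Hochberg) where every library held at least 20 cells. Whether same-letter libraries deviate together was checked, with r of 0.096 to 0.431 over genes, above 0 in each of 13 comparisons. As there are only 2 pairs and the labels do not explain the letter, the libraries were not treated as paired. Thinned values are exact expectations over all draws of 1000 UMIs from each cell (hypergeometric, members taken as independent within a cell); they replaced single random draws, which had moved visibly from one seed to another. The scripts were tested on simulated data. Alternatives were DESeq2 1.42.0, other size factors, no filter, a replicate block, leaving out each library, stricter cells, doublets kept and resolution 2. Genes outside the 10 were named by the 2 smallest p-values per list in the lineage where the list is highest, unless said otherwise. The members and the lists were chosen with earlier results of these data known. Intervals cover the spread between libraries, and a level near the floor of 3 counts (0.688 to 6.63 CPM in lymphocytes) is imprecise.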

Additional observations from a re-analysis of the deposited data

How the results depend on the processing

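Depth limits the lymphatic, myofibroblast and smooth muscle comparisons, with 23, 40 and 43 cells in their smallest library, and levels of a few CPM. Among single member values, 677 kept their direction and their side of the threshold, 4 gained a call, 5 lost one and 11 changed sign, all 11 of values not called in the main test. Leaving out 1 library at a time, the genotype difference in all fibroblasts ran from -0.14 to 0.017 for Fbn1, from -0.44 to 0.18 for Lox and from -0.25 to 0.087 for Loxl1, above 0 without mutant B (and for Loxl1 at 0.014 without WT A). That of Eln in arterial cells ran from -0.75 (without mutant A; -0.076 without WT B) to 0.57, and was -0.062 with the replicate block and -0.34 at resolution 2. Loxl1 in arterial against general capillary cells ran from -1.29 to 0.31, above 0 without WT A (0.26) or WT B, and Mfap5 in arterial against venous cells from -0.12 (without mutant B) to 0.46. The number of members called between genotypes stayed 0 but for myofibroblasts, where leaving out 1 library gave 0 to 1. The difference of Mfap4 ran from -0.69 to -0.27 in all fibroblasts and from -0.72 to -0.32 in alveolar fibroblasts, that of Eln in myofibroblasts from -1.08 to -0.86, and that of Fbn1 in aerocytes from 0.86 to 1.29. Levels that moved by more than 1 SD were Fbn1 in adventitial fibroblasts (360.6 CPM with doublets kept), Fbln5 in arterial cells (332 CPM at resolution 2) and Loxl2 in smooth muscle cells (81.7 CPM with that cluster unsplit, added after the data were seen).

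The number of all genes called between genotypes was less stable, and the causes were not tested. DESeq2 called 4 in all fibroblasts, 8 in all endothelial cells, 5 in alveolar fibroblasts, 2 in venous cells, 14 in general capillary cells and 2 in aerocytes, and RLE size factors 2 in venous cells. With no filter the numbers were 31 in all fibroblasts, 6 in all endothelial cells, 34 in adventitial and 27 in alveolar fibroblasts, 14 in myofibroblasts, 7 in smooth muscle cells, 5 in pericytes, 11 in arterial, 17 in venous and 7 in general capillary cells, 23 in aerocytes and 4 in lymphatic cells. With no filter the interaction tests called 10 (mural and fibroblast), 48 (endothelial and fibroblast) and 7 (mural and endothelial). With the replicate block, in which the set letter is a term although the labels do not show that it pairs the libraries, the numbers were 36 in all fibroblasts, 73 in all endothelial cells, 18 in adventitial and 36 in alveolar fibroblasts, 6 in myofibroblasts, 10 in pericytes, 18 in arterial, 4 in venous and 5 in general capillary cells, 11 in aerocytes and 2 in lymphatic cells. The block called no member. Stricter cells gave 1 in venous cells and no value for lymphatic cells, doublets kept gave 2 in myofibroblasts and 5 in lymphatic cells, and resolution 2 gave 4 in arterial cells. Leaving out 1 library at a time gave 2 to 24 in all fibroblasts, 0 to 38 in mural cells, 5 to 34 in all endothelial cells, 5 to 27 in adventitial and 12 to 23 in alveolar fibroblasts, 8 to 46 in myofibroblasts, 0 to 19 in smooth muscle cells, 0 to 3 in pericytes, 3 to 22 in arterial, 11 to 34 in venous and 0 to 34 in general capillary cells, 3 to 12 in aerocytes and 0 to 27 in lymphatic cells. For the interactions it gave 3 to 15, 1 to 34 and 3 to 51 in the order above. With the unnamed endothelial cluster added, 0 genes were called between genotypes, and Mfap5 differed between endothelial cells and fibroblasts by 0.52. The lone library of a group left by such a fit is assumed to vary like the other group.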

Other observations

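Outside the fibroblast, mural and endothelial types, the member that stood out was Fbln5 in alveolar type 1 cells, the flat epithelial cells of gas exchange. These 1565 cells were 3.84% of the kept cells and held 29.4 ± 4.24% of all Fbln5 UMIs, at 501 ± 83.3 CPM (4 libraries). With cells thinned to 1000 UMIs, Fbln5 was expected in 32.4% of them and in 0.183% of lymphocytes. Lox was also read there, at 30.3 ± 4.73 CPM against 1.74 CPM in lymphocytes, while Eln stood at 28.4 ± 7.31 CPM and Fbln1 at 1.45 CPM, around its level in lymphocytes (1.16 CPM).

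Emilin1 was read in alveolar macrophages at 40.4 ± 6.02 CPM, in the range of arterial cells and above the 6.17 ± 4.54 CPM of interstitial macrophages. Eln and Emilin1 lie on chromosome 5 with Kdr, the gene of VEGFR2, at 58.8 and 45.0 megabases from it, measured between the lowest coordinates of the genes.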
